A study of Mus musculus with 2756 samples.

Results

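Basal progenitors (BP) of the embryonic mouse neocortex were compared with apical progenitors (AP) collected 24 h after labelling, within each of 4 injection days. The members were the cells of the 24 h collections whose deposited cluster name began with BP or AP, which gave 280 of the 2756 cells of the series and of the 923 cells of 24 h. The BP cells numbered 78 at E12, 47 at E13, 8 at E14 and 35 at E15 (E for embryonic day of injection). The AP cells numbered 14, 22, 32 and 44 on the same days. The series followed cells labelled with FlashTag, a fluorescent dye that stains cells dividing at the ventricular surface, from 4 injection days at 1, 24 and 96 h. The putative primary somatosensory cortex was dissected, the cells brightest for the dye were taken by sorting, loaded on a microfluidic circuit, and cDNA was made with a SMART-Seq kit. All groups carried the dye and no other treatment is named, and the strain and genotype of the mice are not given in the sources used here. The sort limits both classes to daughters of cells that divided around the injection, so BP here are those found within a day of an apical division.

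Apical progenitors are the radial glia that line the ventricle, span the cortical wall and divide at its inner surface. Notch signalling, through repressors of the Hes family, is known to hold them in the progenitor state. Basal progenitors, also called intermediate progenitors, leave the ventricular surface, switch on the T-box factor Eomes, present Notch ligands to their neighbours and usually divide to give neurons. They are a transient stage between radial glia and young neurons.

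Counts were summed over the cells of a class and day, which gave 8 sums. AP sums held 5.27 to 24.5 M counts (59.4 M in all) and BP sums 4.01 to 28.0 M (71.9 M in all), so the E14 BP sum of 8 cells and the E12 AP sum of 14 cells were the shallowest. In these, the deepest cell gave 14.7% and 14.1% of the counts. Levels are given in CPM, the counts of a gene scaled to a total of 1 M counts per sum, and differences per day as log2(CPM + 1) of BP minus AP. E12 and E13 shared 1 run code and E14 and E15 another, and each BP sum was paired with the AP sum of its day and run. No label names an animal or a replicate, so p-values speak only of the spread among these 8 sums, which may be technical. The cluster names are the authors' and are taken to come from the expression of these same cells, so a difference between BP and AP is in part built into the names. The test shows how evenly a difference recurred over the 4 days and is not independent evidence of it.

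Few genes passed the test, while many more separated the classes on every day. With edgeR's quasi-likelihood test and Benjamini-Hochberg adjustment at 0.05, 14 of 9335 genes tested were higher in BP (0.15%) and 13 were lower (0.139%), and 783 genes had an unadjusted p under 0.05. For all 27 genes the BP sums and the AP sums did not overlap, the direction was the same on all 4 days and the fitted difference was over 1 on the log2 scale, from 1.09 to 9.47 in size for the higher genes and from 1.34 to 6.99 for the lower ones. Over all genes tested, all BP sums lay above all AP sums for 287 genes (3.07%) and below them for 289 (3.1%). BP lay above the AP of the same day on all 4 days for 915 genes (9.8%) and below it for 912 (9.77%), and the median difference over all genes was 0.01. The spread was wide, with a common biological coefficient of variation of 80.0% on 3 residual degrees of freedom, and the number called turned on single days. Without E12 it was 15 genes, without E13 4, without E14 2 (Abracl and Fabp7) and without E15 0, where 505 genes had an unadjusted p under 0.05. DESeq2 called 477 genes on the same sums, the 27 among them.

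**Figure D1:**
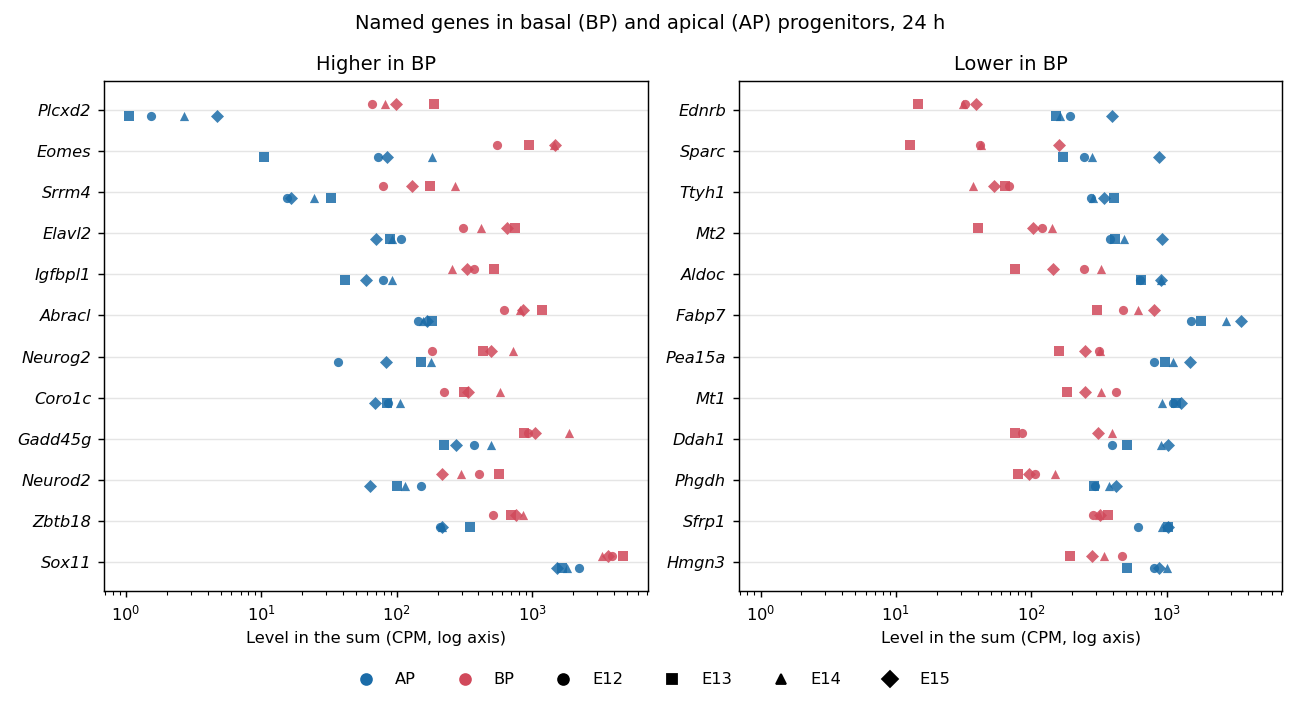
Level of the 12 genes higher (left) and the 12 lower (right) in BP by the rule for named genes, in CPM on a log axis, with 1 point per class and injection day (colour for class, shape for day). In every row the 4 BP points lie on 1 side of the 4 AP points; the widest gap is that of Plcxd2, with AP at 1.05 to 4.70 CPM and BP at 65.7 to 188.8 CPM.

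Eomes, Neurog2, Gadd45g and Neurod4 were among the genes higher in BP. Eomes, the defining factor of intermediate progenitors (chromosome 9, 118478212 to 118486132, plus strand, GENCODE on GRCm38), stood at 72.3, 10.5, 182.4 and 84.7 CPM in AP from E12 to E15 and at 545, 951, 1440 and 1472 CPM in BP. The lowest BP sum, E12, was well above the highest AP sum, E14, so the groups did not overlap. The fitted log2 difference was 4.03 (SE 0.589, edgeR adjusted p 0.0449). From E12 to E15, at least 1 Eomes read was found in 64.3, 63.6, 62.5 and 88.6% of AP cells and in 89.7, 89.4, 100 and 97.1% of BP cells. The exact 95% intervals of AP and BP overlapped on all 4 days. They were 35.1 to 87.2 in AP and 80.8 to 95.5 in BP at E12, and 75.4 to 96.2 and 85.1 to 99.9 at E15. In AP a few cells carried much of it: at E12 the cell with most reads held 53.5% of them.

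Neurog2, the proneural bHLH factor that starts the cascade, stood at 37.0, 150.5, 180 and 83.6 CPM in AP and at 183.1, 433, 720 and 496 CPM in BP. The lowest BP sum, E12, was only just above the highest AP sum, E14, but on every day BP was the higher, by 2.28, 1.52, 2.00 and 2.56 in log2. The fitted difference was 2.10 (SE 0.238, edgeR adjusted p 0.0220). Gadd45g, a stress- and growth-arrest protein that also marks cells committing to differentiation, stood at 369, 224, 499 and 274 CPM in AP and at 936, 873, 1871 and 1041 CPM in BP. The groups did not overlap and the per-day differences lay between 1.34 and 1.96 in log2 (fitted 1.79, SE 0.163, edgeR adjusted p 0.0114).

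Neurod4, a bHLH factor downstream of the neurogenins, fell outside the rule for named genes because of its low level and was picked after its values were seen. AP sums held 0, 1, 1 and 4 Neurod4 reads among 59.4 M counts, and BP sums 570, 1381, 441 and 996 reads among 71.9 M. The pooled level was 0.101 CPM in AP and 47.1 CPM in BP, a ratio of 466 with a 95% counting interval of 214 to 1272 that covers counting error only (edgeR adjusted p 0.0222). Few BP cells carried it: 12 of 78 at E12, 10 of 47 at E13, 1 of 8 at E14 and 11 of 35 at E15 had a read, against 0 of 14, 1 of 22, 1 of 32 and 4 of 44 AP cells. The E14 value of BP thus rests on 1 cell.

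Among the 15 tested members of the list of basal progenitor markers, 5 passed the test as higher and 0 as lower, against 0.15% and 0.139% of all genes (Eomes, Neurog2, Gadd45g, Neurod4 and Elavl2). The median log2 difference was 2.50, against 0.01 over all genes, and 14 of 15 were above AP on all 4 days, against 9.8% of all genes. The list served to check the labels, and the names of the clusters rest on such genes. Insm1, a zinc-finger factor of intermediate progenitors, did not pass: it stood at 56.7, 167.5, 96.1 and 127.6 CPM in AP and at 103.8, 399, 528 and 293 CPM in BP, higher on each day but with overlapping groups (log2 1.44, SE 0.314, edgeR adjusted p 0.171). Sstr2, a somatostatin receptor, was at 10.1, 0.839, 8.26 and 20.5 CPM in AP and at 176.5, 265, 71.8 and 153.2 CPM in BP, with no overlap, yet its adjusted p by edgeR was 0.163.

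Abracl, Coro1c, Elavl2, Srrm4, Plcxd2 and Igfbpl1 were higher in BP as well. Abracl, a small gene related to actin regulators, had per-day differences within 2.10 to 2.69 in log2, with 142.6, 181.99, 157.1 and 166.96 CPM in AP and 616, 1184, 817 and 857 CPM in BP. The AP sums were nearly level and every BP sum was over 4 times the AP sum of its day (log2 2.39, SE 0.170, edgeR adjusted p 0.00253). Coro1c, a coronin that binds actin filaments, stood at 86.5, 83.9, 105.3 and 68.5 CPM in AP and at 221, 310.5, 578 and 334 CPM in BP (log2 2.00, edgeR adjusted p 0.0421).

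Elavl2, a neuronal RNA-binding protein, stood at 106.6, 89.5, 92.3 and 70.0 CPM in AP and at 307, 739, 418 and 650 CPM in BP. Srrm4, the splicing factor that drives neuronal exon use, stood at 15.6, 32.6, 24.3 and 16.4 CPM in AP and at 78.7, 176.2, 268 and 130 CPM in BP. Neither gene overlapped, with fitted log2 differences of 2.50 (edgeR adjusted p 0.0354) and 2.81 (0.0436). Plcxd2, of the phosphatidylinositol-specific phospholipase family, was nearly off in AP of 24 h at 1.52, 1.05, 2.69 and 4.70 CPM and stood at 65.7, 188.8, 81.99 and 97.9 CPM in BP (log2 5.48, SE 0.742, edgeR adjusted p 0.0421). In the E14 BP sum 3 of 8 cells had a Plcxd2 read, and 1 cell held 64.1% of the reads. Igfbpl1, which resembles the binding proteins of insulin-like growth factor, was at 41.3 to 91.8 CPM in AP and 257 to 517 CPM in BP (log2 2.45, edgeR adjusted p 0.0449).

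Neurod2, Zbtb18, Sox11 and Sox4 were also higher in BP. Neurod2, a bHLH factor of cortical projection neurons, stood at 150.6, 100.8, 115.2 and 63.1 CPM in AP and at 406, 564, 300 and 215 CPM in BP (log2 1.76, edgeR adjusted p 0.0449). Zbtb18, a zinc-finger repressor needed in newborn cortical neurons, stood at 208.6, 347, 215 and 216 CPM in AP and at 513, 702, 854 and 764 CPM in BP (log2 1.53, edgeR adjusted p 0.0429). Sox11 and Sox4 are the SoxC factors that accompany neuronal differentiation. Sox11 was at 1521 to 2219 CPM in AP and 3260 to 4692 CPM in BP (log2 1.10, SE 0.130, edgeR adjusted p 0.0222). Sox4, outside the rule for named genes and picked after its values were seen, was at 452 to 608 CPM in AP and 905 to 1373 CPM in BP (log2 1.09, SE 0.161, edgeR adjusted p 0.0452).

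In the list of bHLH factors of the cascade, 3 of 13 tested members passed as higher (Neurog2, Neurod2 and Neurod4) and 0 as lower, against 0.15% and 0.139% of all genes, with a median log2 difference of 1.56. Neurod1 did not pass (43.8, 7.65, 22.2 and 34.2 CPM in AP, 198.3, 125.01, 131.8 and 96.3 CPM in BP, edgeR adjusted p 0.146). Of 18 young neuron markers, 1 passed as higher (Neurod2), against 0.15% of all genes. On all 4 days 9 were above AP and 1 below (9.8% and 9.77% of all genes), and the median was 1.30. Tubb3, the neuronal tubulin, was at 429, 86.8, 144.4 and 102.8 CPM in AP and 746, 644, 343 and 406 CPM in BP, with overlapping groups (edgeR adjusted p 0.130). The E14 sums differed least: the median difference of the young neuron list was 0.22 on that day, against 1.43 at E12, 2.34 at E13 and 0.50 at E15.

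Of the 13 genes lower in BP, 5 belong to the list of apical progenitor markers. Fabp7, the brain fatty acid binding protein of radial glia (chromosome 10, 57784881 to 57788450, plus strand, GENCODE on GRCm38), stood at 1512, 1780, 2732 and 3556 CPM in AP and at 476, 305, 610 and 798 CPM in BP. BP was lower on each day, with log2 differences of −1.67, −2.54, −2.16 and −2.15 from E12 to E15, and the highest BP sum was well under the lowest AP sum. The fitted difference was −2.13 (SE 0.148, edgeR adjusted p 0.00253). A Fabp7 read was found in every AP cell but 1 at E13, in 67 of 78 BP cells at E12, in 38 of 47 at E13 and in all BP cells at E14 and E15. Ttyh1, a membrane protein of radial glia, stood at 276, 411, 284 and 341 CPM in AP and at 68.6, 64.3, 37.1 and 53.2 CPM in BP (log2 −2.57, edgeR adjusted p 0.0142).

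Ednrb, Sparc and Sfrp1 were also lower in BP. Ednrb, the endothelin B receptor, was at 193.2, 152.95, 163.6 and 394 CPM in AP and at 32.2, 14.6, 31.2 and 39.2 CPM in BP (log2 −2.93, SE 0.341, edgeR adjusted p 0.0222). Sparc, a secreted protein that binds matrix, was at 243, 171.5, 279 and 881 CPM in AP and at 41.9, 12.8, 42.4 and 160 CPM in BP (log2 −2.86, SE 0.294, edgeR adjusted p 0.0142). For both genes the E15 AP sum was the highest by a wide margin, and the groups did not overlap. Sfrp1, a secreted Wnt antagonist, was at 618, 1023, 925 and 1022 CPM in AP and at 283, 371, 316 and 324 CPM in BP, a tight range in BP (log2 −1.45, SE 0.148, edgeR adjusted p 0.0142).

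The other lower genes included Aldoc, Phgdh, Ddah1, Mt1, Mt2, Pea15a and Hmgn3. Aldoc, the brain form of the glycolytic aldolase, was at 630, 641, 905 and 901 CPM in AP and at 244, 75.99, 325 and 144.01 CPM in BP (log2 −2.14, edgeR adjusted p 0.0449). Phgdh, the entry enzyme of serine synthesis, was at 292 to 419 CPM in AP and 79.7 to 150 CPM in BP (log2 −1.70, edgeR adjusted p 0.0436). Ddah1, which breaks down methylated arginines, was at 393 to 1021 CPM in AP and 75.1 to 392 CPM in BP, the closest approach of the classes among the lower genes (log2 −1.97, edgeR adjusted p 0.0426). The metallothioneins Mt1 (log2 −1.99) and Mt2 (log2 −2.49), which bind zinc and copper, were both lower, with edgeR adjusted p of 0.0239 and 0.0429. Their transcripts are short and alike, and how shared reads were counted is not given in the sources used here. Pea15a, a phosphoprotein that binds ERK, had a log2 difference of −2.08 (edgeR adjusted p 0.0220), and Hmgn3, a nucleosome-binding protein, one of −1.34 (edgeR adjusted p 0.0388).

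Lxn, which encodes latexin, an inhibitor of carboxypeptidases, was picked after its values were seen, since its mean level was under the 50 CPM of the naming rule. AP sums held 909, 442, 1326 and 2368 reads, and BP sums 5 at E13, 0 at E14 and 12 at E15, and most of the BP reads were at E12. The pooled AP level was 31.2 times the BP level (95% counting interval 27.0 to 36.1, counting error only). The gene was patchy within AP: 2 of 14, 1 of 22, 10 of 32 and 15 of 44 AP cells had a read from E12 to E15, all of the E13 reads came from 1 cell, and at E12 1 cell held 99.9% of them. In BP, 1 cell held 74.5% of all Lxn reads.

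Of the 20 apical progenitor markers, 5 passed as lower (Fabp7, Ttyh1, Aldoc, Ddah1 and Ednrb) and 0 as higher, against 0.139% and 0.15% of all genes. The median was −1.84 and 16 were below AP on all 4 days, against 9.77% of all genes. Pax6, the homeobox factor shared by both progenitor types, stood at 654, 853, 684 and 875 CPM in AP and at 373, 235, 597 and 458 CPM in BP, without overlap but with an E14 difference of only −0.20 in log2 (fitted −0.95, SE 0.259, edgeR adjusted p 0.299). Sox2, the SoxB factor of neural progenitors, stood at 94.3, 110.7, 134.1 and 136.6 CPM in AP and at 52.5, 57.9, 74.3 and 68.01 CPM in BP. Its differences were between −0.83 and −1.00 on the 4 days, yet it did not pass (edgeR adjusted p 0.493). A Sox2 read was found in 50, 77.3, 90.6 and 86.4% of AP cells and in 35.9, 31.9, 75 and 65.7% of BP cells from E12 to E15.

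The Notch pathway was followed from ligands to targets, and 0 of its 30 tested genes in 3 lists passed the edgeR test (4 higher and 6 lower at an unadjusted p under 0.05; 3 higher and 6 lower in DESeq2). Among ligands and modulators, 3 of 8 tested were above AP on all 4 days (Dll3, Mfng and Numb) and 1 was below (Jag1), against 9.8% and 9.77% of all genes. The median fitted difference was 1.74, while the per-day medians were 1.24, 0.92, 0.91 and 1.13 from E12 to E15. In 12 of 17 alternative settings the fitted median moved by at least the SD of the per-day medians. Dll1, the ligand presented by cells leaving the progenitor state, stood at 10.8, 30.9, 21.6 and 7.40 CPM in AP and at 22.4, 22.2, 79.5 and 47.3 CPM in BP, higher on 3 of 4 days (log2 1.31, SE 0.843, edgeR adjusted p 0.773). Dll3, a family member that does not activate Notch in neighbours, stood at 0.190, 14.2, 6.37 and 0.613 CPM in AP and at 8.14, 29.2, 34.1 and 41.3 CPM in BP (log2 3.63, SE 1.44, edgeR adjusted p 0.531). Dll3 reads were held by few cells, 11 in AP and 38 in BP, and 1 of the 8 E14 cells of BP held 90.5% of that sum's reads. Mfng, a glycosyltransferase that alters how Notch reads its ligands, was at 10.7 to 108.4 CPM in AP and 168.3 to 270 CPM in BP (log2 2.18, edgeR adjusted p 0.324).

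Receptors and core machinery had a median of −0.87 over 15 tested genes, and 1 was below AP on all 4 days, against 9.77% of all genes. That gene, Notch2, stood at 81.2, 67.3, 117.1 and 128.8 CPM in AP and at 8.11, 9.73, 30.7 and 9.23 CPM in BP without overlap (log2 −2.97, SE 0.565, edgeR adjusted p 0.120). Notch1 stood at 114.4, 214.5, 113.1 and 181.4 CPM in AP and at 48.4, 49.3, 175.4 and 112.8 CPM in BP. The groups overlapped for Notch1, and E14 went the other way.

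Among 7 targets and Hes family genes the median was −2.15, with 4 below AP on all 4 days (Id4, Hes1, Hey1 and Hes5) and 2 above (Id2 and Hes6), against 9.77% and 9.8% of all genes. Hes1, a repressor switched on by Notch, stood at 316, 236, 341 and 325 CPM in AP and at 120.97, 53.2, 10.7 and 16.6 CPM in BP. The BP minus AP differences were −1.38, −2.13, −4.87 and −4.21 in log2, largest at E14 and E15 (fitted −3.18, SE 0.633, edgeR adjusted p 0.132; DESeq2 adjusted p 7.79e-09). Hes5, the other main Hes target, stood at 62.96, 64.3, 30.6 and 60.5 CPM in AP and at 21.3, 23.5, 2.24 and 1.55 CPM in BP (log2 −2.94, SE 0.954, edgeR adjusted p 0.411). From E12 to E15, Hes1 reads were found in 71.4, 72.7, 81.3 and 81.8% of AP cells and in 51.3, 27.7, 25 and 37.1% of BP cells. Hes5 reads were found in 28.6, 40.9, 46.9 and 68.2% of AP cells and in 28.2, 17.02, 25 and 11.4% of BP cells, so that the shares were nearly equal at E12. Hes6, which opposes Hes1, was the other way round, at 127.96 to 253 CPM in AP and 399 to 667 CPM in BP, and just missed the threshold (log2 1.53, SE 0.241, edgeR adjusted p 0.0567).

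Promoter letters are shown for 2 genes lower and 2 genes higher in BP on all 4 days. Notch is known to act at its targets through RBPJ, and proneural factors through E-boxes. The 4 genes were chosen by name and not by a rule. Of them, Hes5 and Dll3 did not pass the test (edgeR adjusted p 0.411 and 0.531). The 250 bases before the RefSeq start site (GRCm38.p6) were searched on both strands for TGGGAA, the core that RBPJ reads, and for CAGCTG, an E-box; the capitals mark the match, written as TTCCCA where it lies on the other strand. Hes5 (chr4:154960673-154960922, plus strand) held 2 RBPJ cores, which begin 226 and 82 bases before the start, and Fabp7 (chr10:57784673-57784922, plus strand) held 1, 249 bases before it. Gadd45g (chr13:51846425-51846674, plus strand) held an E-box 55 bases before the start, and Dll3 (chr7:28301786-28302035, minus strand) 1 at 7 bases. The start sites differ between annotations: the Dll3 window lies wholly inside the GENCODE gene (chromosome 7, 28293553 to 28302238), and the last bases of the Fabp7 window lie inside the GENCODE gene given above.
Hes5: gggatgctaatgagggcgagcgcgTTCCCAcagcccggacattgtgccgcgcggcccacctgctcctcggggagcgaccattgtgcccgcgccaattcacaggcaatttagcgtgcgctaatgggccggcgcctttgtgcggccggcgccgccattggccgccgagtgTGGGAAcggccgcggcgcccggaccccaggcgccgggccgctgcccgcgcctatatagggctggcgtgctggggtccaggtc
Fabp7: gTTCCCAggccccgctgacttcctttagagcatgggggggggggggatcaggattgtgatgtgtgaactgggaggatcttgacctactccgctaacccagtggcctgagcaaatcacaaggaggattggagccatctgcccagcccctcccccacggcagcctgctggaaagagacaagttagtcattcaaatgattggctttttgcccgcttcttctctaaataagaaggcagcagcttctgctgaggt
Gadd45g: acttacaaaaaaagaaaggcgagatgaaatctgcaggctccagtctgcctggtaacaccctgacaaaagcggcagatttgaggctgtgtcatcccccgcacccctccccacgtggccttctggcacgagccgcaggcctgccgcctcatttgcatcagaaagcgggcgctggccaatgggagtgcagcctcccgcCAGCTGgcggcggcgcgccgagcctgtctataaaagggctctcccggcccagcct
Dll3: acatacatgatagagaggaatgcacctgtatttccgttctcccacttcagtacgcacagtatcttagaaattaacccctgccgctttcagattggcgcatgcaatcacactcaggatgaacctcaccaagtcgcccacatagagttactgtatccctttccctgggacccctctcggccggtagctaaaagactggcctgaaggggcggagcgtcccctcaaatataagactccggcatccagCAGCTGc

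The same search over all 32851 windows of the RefSeq table found TGGGAA in 24.1% and CAGCTG in 14.7% of its 27025 genes, where a gene counts if any of its windows holds the letters. Of the called genes, 13 higher and 11 lower ones matched the table. CAGCTG was in 4 of the 13 higher genes (Gadd45g, Sox11, Zbtb18 and Sox4) and in 2 of the 11 lower ones (Sparc and Lxn). TGGGAA was in 1 higher gene (Sox4) and in 3 lower ones (Aldoc, Fabp7 and Mt2). A match describes the letters of the window and is not a bound site.

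Other gene groups were described by their medians and counts, and in most of them few or no members passed the test. Matrix and integrin genes had a median of −1.76 over 19 tested. Of these, 1 was called lower (Sparc) and 9 were below AP on all 4 days, against 0.139% and 9.77% of all genes. Among the 9 was Ptn, a secreted growth factor (130.7, 183.98, 524 and 491 CPM in AP, 59.5, 34.3, 186.6 and 109.4 CPM in BP, edgeR adjusted p 0.0572). Genes of FGF receptors and ERK feedback had a median of −1.52 over 10 tested, with 0 called by edgeR (3 at an unadjusted p under 0.05, 2 by DESeq2, all lower). Of these 10, 4 were below AP on all 4 days and 0 above, against 9.77% and 9.8% of all genes. Fgfbp3, an FGF-binding protein, was at 91.4, 46.5, 43.9 and 91.5 CPM in AP and at 1.79, 0.195, 0 and 7.48 CPM in BP (edgeR adjusted p 0.129). Cyr61, a secreted target of the Hippo pathway, was at 49.9 to 85.3 CPM in AP and 0 to 5.89 CPM in BP (edgeR adjusted p 0.236), in a list whose median was −0.42 over 18 tested.

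Genes of late and gliogenic progenitors had a median of −2.01 over 24 tested, with 3 called lower (Fabp7, Mt1 and Mt2). On all 4 days 14 of them were below AP and 1 above (Nfia). From E12 to E15, the cluster AP.late made up 14.3, 31.8, 59.4 and 84.1% of AP cells, so the AP mix changed with day. Sox9, the SoxE factor of radial glia, was at 339, 346, 230 and 245 CPM in AP and at 82.5, 61.8, 102.4 and 46.1 CPM in BP and missed the threshold (log2 −2.03, SE 0.312, edgeR adjusted p 0.0526). Glycolysis genes had a median of −0.66 over 20 tested, with 1 called (Aldoc) and 9 below AP on all 4 days and 0 above. Ldha, which makes lactate, was at 906 to 1437 CPM in AP and 590 to 854 CPM in BP (edgeR adjusted p 0.0702). Lipid and cholesterol genes had a median of −0.71 over 30 tested, with 1 called (Fabp7). On all 4 days 1 of them was above AP (Acly) and 13 below, such as Hmgcs1 of the sterol pathway (log2 −1.22, edgeR adjusted p 0.0504). For the 3 lists the shares called lower were above the 0.139% of all genes. Their shares below AP on all 4 days were above the 9.77% of all genes, but no test of the lists was made.

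Among factors from the SoxB, SoxC and Pax6 to Tbr1 list, 4 of 20 tested passed as higher (Eomes, Sox11, Sox4 and Zbtb18) and 0 as lower, against 0.15% and 0.139% of all genes. Of these 20, 10 were above AP on all 4 days and 5 below, against 9.8% and 9.77% of all genes. Layer genes of neurons went both ways, with 0 called by edgeR in either list. Of 10 deep-layer genes tested, 4 were above AP on all 4 days and 2 below (Nr4a2 and Ldb2). Of 12 upper-layer genes, 4 were above and 1 below (Dok5), against 9.8% and 9.77% of all genes. Ldb2 was at 38.7, 15.9, 6.67 and 10.7 CPM in AP and at 0 to 0.0516 CPM in BP (edgeR adjusted p 0.181). Tbr1, of deep-layer neurons, was at 31.1, 1.99, 18.2 and 11.9 CPM in AP and at 143.1, 111.04, 59.1 and 74.6 CPM in BP (edgeR adjusted p 0.290). Pou3f2, of upper-layer neurons, stood at 45.1, 86.9, 250.2 and 290.1 CPM in AP and at 57.988, 228.4, 430 and 488 CPM in BP (edgeR adjusted p 0.352 for BP against AP). Both classes had higher levels at later injection days, but E12 and E13 shared 1 run code and E14 and E15 another. Day and run cannot be told apart between these pairs. Of 10 deep-layer genes tested, 4 higher and 2 lower had an unadjusted p under 0.05 (1 and 2 by DESeq2), and of 12 upper-layer genes 4 higher (3 by DESeq2).

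Delamination and radial migration are the steps by which a cell leaves the ventricle. Of 29 tested genes of delamination and radial migration, 9 were above AP on all 4 days and 3 below (9.8% and 9.77% of all genes), with a median of 0.45 and 0 called by edgeR (11 higher and 2 lower at an unadjusted p under 0.05, 6 and 2 by DESeq2). Lzts1, a microtubule-associated protein that acts in delamination, was at 0.948, 5.45, 47.7 and 34.3 CPM in AP and at 107.5, 292, 386 and 244 CPM in BP, without overlap (log2 4.41, SE 0.728, edgeR adjusted p 0.0702). Rnd2, a small GTPase of radial migration, was at 202.5, 29.2, 55.5 and 23.6 CPM in AP and at 315, 491, 283 and 182.8 CPM in BP, where the E12 sum of AP overlapped with BP (edgeR adjusted p 0.165). Apical junction and polarity genes had a median of −0.12 over 30 tested, with 6 below AP on all 4 days (9.77% of all genes), 1 above and 0 called by edgeR (1 in each direction at an unadjusted p under 0.05, 1 higher by DESeq2). Ctnna2, the neuronal catenin, was the member above AP on all 4 days, at 5.12, 0.734, 6.96 and 21.0 CPM in AP and 27.3, 21.6, 76.3 and 27.6 CPM in BP (edgeR adjusted p 0.534). Cilium and hedgehog genes had a median of −0.27 over 18 tested, with 0 called by edgeR (2 lower at an unadjusted p under 0.05, 2 lower by DESeq2).

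**Figure D2:**
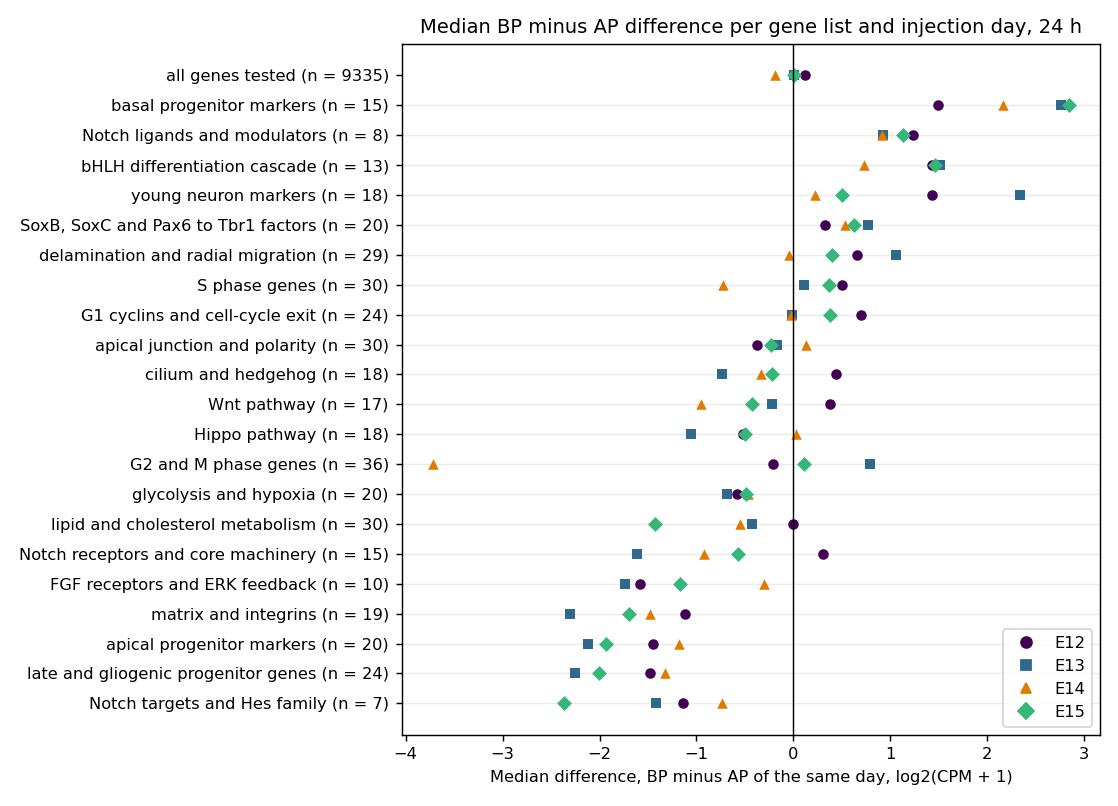
Median BP minus AP difference in log2(CPM + 1) for 21 gene lists, with 1 point per injection day (n is the number of genes tested) and all 9335 genes in the top row. The basal progenitor markers lie to the right and the apical progenitor markers to the left on all 4 days, and the E14 point of the G2 and M list stands apart at −3.72.

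The summed levels of S phase genes and of G2 and M genes each went both ways over the 4 days. Of 30 S phase genes tested 0 passed in edgeR (2 higher at an unadjusted p under 0.05, 0 by DESeq2), and of 36 G2 and M genes 0 passed (1 in each direction at an unadjusted p under 0.05, 1 lower by DESeq2), with medians of 0.15 and −0.47. Single members kept 1 direction on all 4 days, Slbp, Pole, Chaf1b, Spc25 and Ttk above AP and Cenpf and Ckap2 below, against 9.8% and 9.77% of all genes. S phase genes summed to 3937, 5479, 3777 and 2708 CPM in AP and to 5099, 5934, 2202 and 3415 CPM in BP, higher in BP on 3 of 4 days. G2 and M genes summed to 10371, 4669, 5071 and 3037 CPM in AP and to 8615, 7185, 809 and 3442 CPM in BP. The 8 E14 cells of BP thus had the lowest sum, within the 369 to 1401 CPM of the N1d neurons of 24 h, and they are also the fewest cells. All 8 belong to the cluster BP.late, whereas BP.early made up 64 of 78 cells at E12, 25 of 47 at E13 and 9 of 35 at E15. With BP.late cells alone on all days, the median of the G2 and M list was −3.49 and that of the S phase list −0.94. With both BP clusters but without E14, the G2 and M median was 0.24. The sign of the −0.47 thus rests on the E14 sums, where day and BP cluster cannot be told apart.

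The G1 and cell-cycle exit list had a median of 0.03 over 24 tested, and 1 member, Gadd45g, was called higher (against 0.15% of all genes). Its 29 genes summed to 2916, 3609, 3103 and 2380 CPM in AP and to 3742, 3947, 4412 and 3860 CPM in BP. This sum was higher in BP on 4 of 4 days. At E13 and E14, though, the gap in Gadd45g alone was wider than that of the sum. On those days Gadd45g was at 224 and 499 CPM in AP and at 873 and 1871 CPM in BP. Of the members, 4 were above AP on each day (Cdk4, Btg2, Gadd45g and Cdkn1c) and 1 below (Ccnd3), against 9.8% and 9.77% of all genes. Btg2, an antiproliferative gene used as a marker of neurogenic divisions, was at 109.2, 63.5, 154.9 and 161.3 CPM in AP and at 137.01, 211.9, 475 and 356 CPM in BP, higher on all 4 days but overlapping (edgeR adjusted p 0.244). Cdkn1c, the cell-cycle inhibitor p57, was at 65.2, 39.6, 11.8 and 3.84 CPM in AP and at 160.5, 263, 26.9 and 49.4 CPM in BP (edgeR adjusted p 0.258). Ccnd3, a G1 cyclin, was below AP on all 4 days, with differences of −1.18 to −1.87 in log2 (edgeR adjusted p 0.212).

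**Figure D3:**
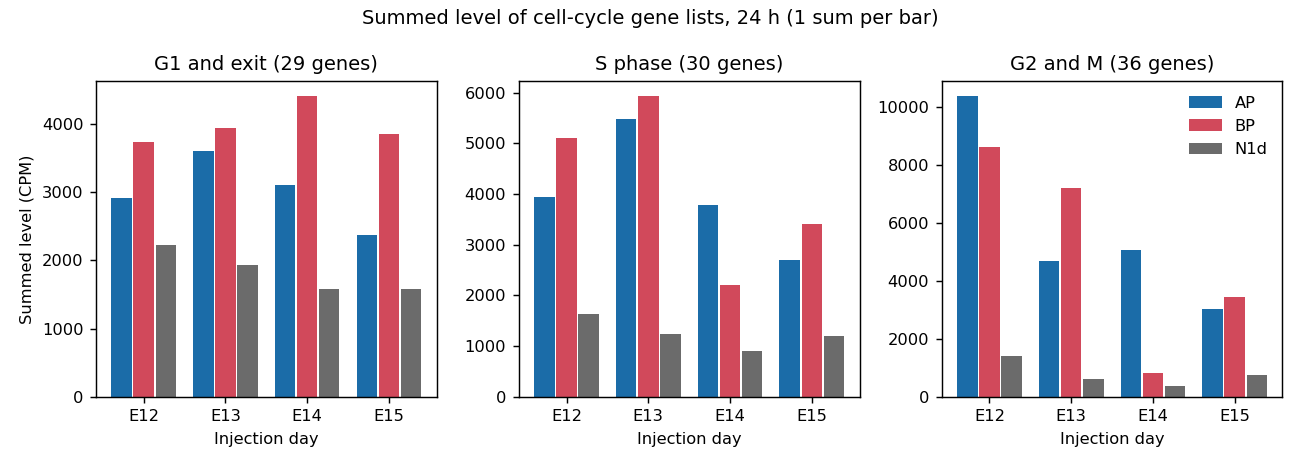
Summed level in CPM of 3 cell-cycle gene lists by injection day for AP, BP and N1d neurons of 24 h; each bar is 1 sum without replicate error. BP and AP both stand above N1d for G2 and M genes on every day, and the E14 BP bar, at 809 CPM, comes closest to N1d.

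The N1d neurons of the same collections (633 cells), the neurons typical of the first day, gave a level to set beside both progenitor classes. BP lay above both AP and N1d on all 4 days for 2.09% of all genes, and 5 of the 14 called higher genes were among them: Eomes, Neurog2, Gadd45g, Coro1c and Neurod4. Gadd45g was at 341, 225, 155.8 and 120 CPM in N1d, and Neurog2 at 76.7, 58.7, 45.6 and 40.7 CPM, under the BP of every day. A second group of 5 called genes went from AP through BP up to N1d on all 4 days (Igfbpl1, Neurod2, Zbtb18, Sox11 and Sox4), a pattern of 1.95% of all genes. Neurod2 reached 934 to 1155 CPM and Sox11 7375 to 9775 CPM in N1d. Of the 13 called lower genes, 10 went down from AP through BP to N1d on all 4 days, a pattern of 1.64% of all genes, and Sfrp1, Hmgn3 and Lxn did not. Since these patterns include the step from AP to BP that called the genes, their counts are given as a description.

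**Figure D4:**
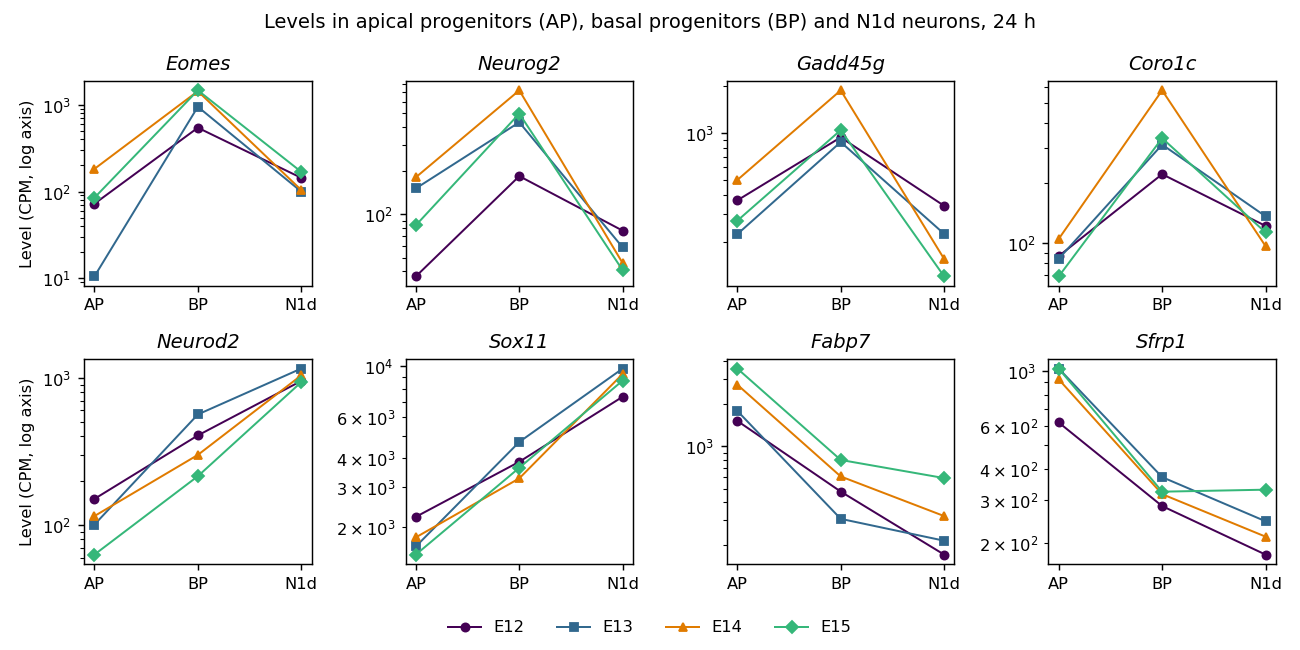
Level in CPM (log axis) of 8 called genes in AP, BP and N1d neurons of 24 h, with a line joining the 3 sums of each injection day. Eomes, Neurog2, Gadd45g and Coro1c peak in BP on all 4 days, Neurod2 and Sox11 go on up to N1d, and Fabp7 and Sfrp1 fall from AP to BP, with Sfrp1 at E15 slightly higher in N1d than in BP (330 against 324 CPM).

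Cells collected at 1 h on E14 and E15 gave the same contrast in libraries the 24 h test did not use, although their cluster names come from the same clustering. They held 8 and 32 BP cells. All 14 called higher genes were higher in BP on both days at 1 h, as were 19.3% of all genes, and all 13 called lower genes were lower on both, as were 37.8% of all genes. Eomes was at 122.7 and 103.4 CPM in AP and at 1268 and 930 CPM in BP at 1 h, beside 182.4 and 84.7 CPM in AP and 1440 and 1472 CPM in BP at 24 h. Neurod2 was at 55.1 and 32.6 CPM in AP and at 66.99 and 256 CPM in BP, a small difference at E14. Sparc was at 162.2 and 294 CPM in AP and at 154.4 and 125.6 CPM in BP, so that the E14 classes were nearly level. Hes5 did not keep its direction at 1 h: it was at 26.9 and 22.5 CPM in AP and at 56.8 and 27.3 CPM in BP.

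**Figure D5:**
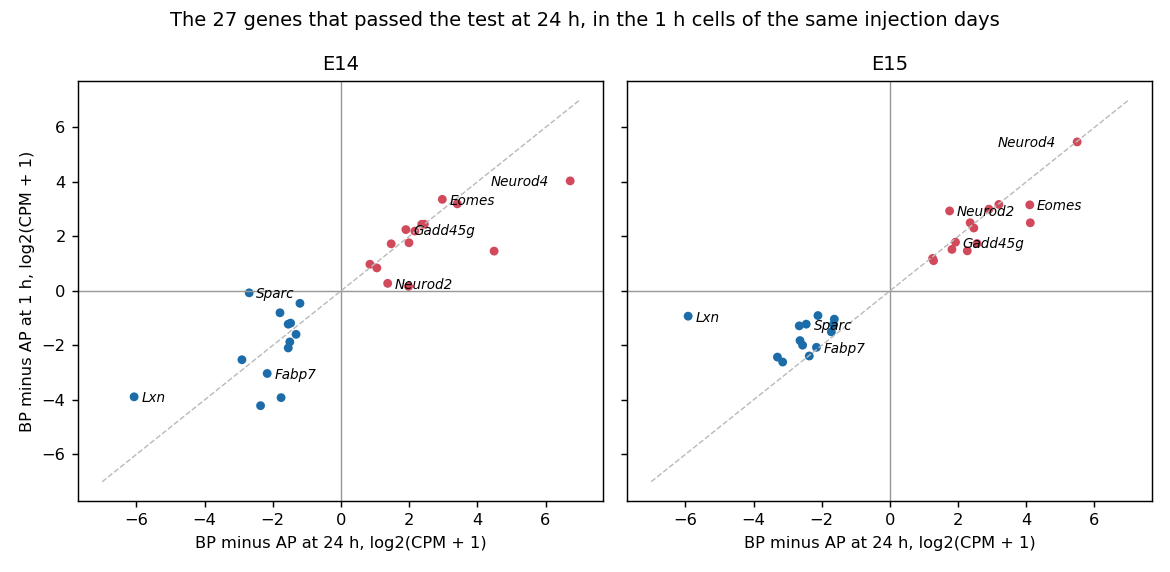
BP minus AP difference at 1 h (vertical) against that at 24 h (horizontal), both in log2(CPM + 1), for the 27 genes called at 24 h at E14 and E15 (red for higher and blue for lower at 24 h; dashed line, equal values). Every point lies in the lower left or upper right part of its panel, with Sparc at E14 and Neurod2 at E14 nearest to 0 at 1 h among the genes labelled.

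Whether the difference between BP and AP shifted from E12 to E15 was tested by the product of class and day. No gene passed in edgeR (0%), where 170 genes had an unadjusted p under 0.05, and DESeq2 called 6. On simulated data of this size, 0% of 100 genes with a slope of 1 log2 unit per day were recovered, so shifts of that size were not detectable in these 8 sums. The class test recovered 2% of 100 genes changed by 1 log2 unit and 15% of 100 changed by 2 units, with 1 false call among 18, so many differences of the sizes above would be missed as well.

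Of 3 measures of cell quality, 1 had the same direction on all 4 days. The median count per cell differed by 395 between BP and AP (SD 68422 over 4 days, exact permutation p 1, two-sided) and the median number of genes by 70.5 (SD 281, exact permutation p 0.75). The mitochondrial share was higher in BP on 4 of 4 days, by 0.524 percentage points (SD 0.148, exact permutation p 0.125, the smallest that 4 pairs allow, and 0.375 adjusted over 3 measures), and its part in the results was not tested. Markers of microglia, vessels and blood and of Cajal-Retzius cells were low in both classes, while an astrocyte marker was not low in every AP sum. Of 7 microglia, vessel and blood genes in the table, 1 was tested, and their summed level was 3.38 to 29.6 CPM in AP and 1.99 to 16.7 CPM in BP. Cajal-Retzius markers summed to 0.569 to 13.4 CPM in AP and 4.74 to 26.7 CPM in BP. Astrocyte and oligodendrocyte precursor markers summed to 0.3145 to 113.45 CPM in AP and 11.0 to 54.6 CPM in BP, and their part in the results was not tested. Of them, Aldh1l1 was at 60.5 CPM in the E12 AP sum, where 1 cell held 95.6% of the reads. It was at 112.5 CPM in the E15 AP sum, with a read in 21 of 44 cells.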

How the data were processed

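The deposited values were whole, unnormalized read counts for 16441 genes in 2756 cells. The submitters' processing notes name GRCm38, TopHat2 2.0.13 and UMI-tools without their roles. The counter, annotation and filters are not given in the sources used here. The 24 h cells and the E14 and E15 cells of 1 h were used, and 1398 columns were not. Clusters are the authors' deposited labels. No cell was filtered and no doublet caller was run. The lowest ratio of a column's total to the read number in the labels was 0.993. No position code was shared (0) and 0 columns were identical.

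Counts were summed per class and injection day, and genes with at least 10 CPM in at least 3 of 8 sums were tested with edgeR 4.0.16 (TMM, quasi-likelihood) in R 4.3.3, with injection day as a block, and adjusted by Benjamini-Hochberg at 0.05. The block rests on the day and run that the labels give a BP and an AP sum in common. Cell measures were compared by exact sign-flip permutation, two-sided. Intervals of shares are Clopper-Pearson at 95% and treat cells as independent. Named genes were, per direction, the 12 with the biggest fitted change that passed the threshold, averaged 50 CPM or more over the sums and kept 1 direction on 4 days, leaving out predicted, ribosomal and mitochondrially encoded genes, plus up to 4 list members by smallest p and 9 followed genes. The members and lists were chosen with earlier results of these data known. The result of 1 marker list is not reported here. The fits were tested on simulated data. Alternatives were DESeq2 1.42.0, its size factors, 2 other filters, equal weight per cell (limma 3.58.1), cells of at least 100000 counts, other cluster choices, omitted days, no block, N1d in the fit and each run alone. Voom with sample quality weights was added after the data were seen. Promoters came from RefSeq (GRCm38.p6). Tables used Python 3.11.15, numpy 2.4.6, pandas 2.3.3, scipy 1.17.1 and matplotlib 3.10.9.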

Additional observations from a re-analysis of the deposited data

Results flagged for a closer look

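In 6 of 74 groups of 4 sums, the highest or lowest sum stood apart from the others by a gap of more than 0.829 of the group's range, and chance alone gives about 1 in 20. Gadd45g was at 1871 CPM in the E14 BP sum, against 873 to 1041 CPM in the other BP sums. Zbtb18 was at 347 CPM in the E13 AP sum, against 208.6 to 216 CPM. Ednrb was at 394 CPM and Sparc at 881 CPM in the E15 AP sum, against 152.95 to 193.2 and 171.5 to 279 CPM in the other AP sums. Lxn was at 6.39 CPM in the E12 BP sum, against 0 to 0.619 CPM, with most of the reads in 1 cell. Hes5 was at 30.6 CPM in the E14 AP sum, against 60.5 to 64.3 CPM.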

How the results depend on the processing

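The count of 27 genes depended on the test more than on the scaling. With DESeq2 it was 477 (225 higher, 252 lower), with voom and sample quality weights 310, with equal weight per cell 53, with N1d sums in the fit 100 (67 and 33) and with BP.late cells alone 46. It was 13 with no filter, 9 with a filter on detection, and 2 with AP.mid2 cells alone. Leaving out 1 day gave 0 to 15. Within each run it was 0, with 529 and 476 genes at an unadjusted p under 0.05. Without the replicate block it was 36, of which 20 were among the 27. DESeq2's size factors gave 24. None of the 27 changed direction in 17 alternatives, and each kept its call in 6 to 14 of them. The change with day had 6 genes in DESeq2 and 0 in all other fits. Leaving out 1 day, the difference in median counts per cell ran from −14345 (without E13) to 34312 (without E14) and reversed also without E12 (−7067) and E15 (−11318), and that in genes per cell ran from −11.0 (without E12, reversed) to 205.3 (without E15). The cause was not tested. The smallest sums held 8 and 14 cells.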
